A study of Mus musculus with 1600 samples.

Results

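Transcripts of 5 genes that build and crosslink elastic fibres were followed in single cells of the embryonic mouse limb: Fbn2 and Fbn1, which encode fibrillin-2 and fibrillin-1, Mfap5, which encodes a small glycoprotein of microfibrils, Eln, which encodes tropoelastin, and Lox, which encodes lysyl oxidase. They were taken by name, and all 5 were among the 22092 gene symbols of the deposited count table. The cells came from C57BL/6 embryos carrying a SCX-GFP transgene, a reporter for scleraxis, which marks tendon and ligament progenitors. Every stage carried this transgene, and no sort for GFP is named in the labels. The tissue was labelled hind limb, and embryos were taken at 3 ages, E10.5, then E12.5, then E15.5, named by the day of gestation. Limbs of siblings of 1 litter, 3 to 5 limbs a pool, were dissociated with collagenase and trypsin, and single cells were captured on the Fluidigm C1. The series asks which cells a limb holds across these stages and how their transcriptomes differ.

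Elastic fibres consist of a core of crosslinked elastin on a scaffold of microfibrils. Fibrillins polymerise into the microfibrils, fibulins and latent TGF-beta binding proteins attach to them and help to place tropoelastin, and lysyl oxidases oxidise lysines of tropoelastin and of fibrillar collagens, which then crosslink. Fbn2 is known as the fibrillin of embryonic tissue and Fbn1 as that of embryonic and adult tissue, while Mfap5 associates with both. In the limb, elastic fibres and microfibrils form in tendon, ligament, skin, perichondrium and vessel walls.

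Of the 120, 160 and 200 cells labelled with these ages in turn, 119, 158 and 200 had at least 1000 detected genes and were kept, with medians of 272198, 250710 and 192228 counts. Each stage was 1 sample, so no test between stages was made. Cells fell into 12 library pools of 40 cells (E10.5 held pools 1 to 3, E12.5 held 4 to 7, and E15.5 held 8 to 12), which are a technical split, and the same 40 cell barcodes were used in every pool. Intervals are exact at 95%, Poisson for sums and Clopper-Pearson for shares, and cover counting error only. Those of counts take each read as independent, and are too narrow if copies made by PCR were counted. The cells labelled E10.5 went against the hind limb label: Pitx1, Isl1 and Hoxc10, hind limb or posterior genes, had 0 counts there, while Tbx5, a forelimb gene, was at 67.9 CPM (counts of the gene per 1000000 counts summed over the stage) against 0.739 and 6.32 CPM in the later stages. Tbx4, another hind limb gene, was not at 0 there, with 190 counts in 4 cells (5.63 CPM), against 79.0 and 42.6 CPM later. Limb position and stage therefore cannot be told apart in any comparison with the cells labelled E10.5. Prrx1, a marker of limb mesenchyme, was read in 117 of 119, 157 of 158 and 178 of 200 cells.

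In the GRCm38 annotation Fbn2 lies on chromosome 18, 58008623 to 58210487, minus strand, with 65 exons in its longest coding transcript of 11041 bases. Fbn1 lies on chromosome 2, 125300594 to 125507993, minus strand, also with 65 exons, over 11971 bases. Eln lies on chromosome 5, 134702593 to 134747323, minus strand, with 37 exons over 3853 bases. Lox lies on chromosome 18, 52516067 to 52529867, minus strand, with 7 exons over 4741 bases, and Mfap5 on chromosome 6, 122505845 to 122529290, plus strand, with 10 exons over 1506 bases. All but Mfap5 overlap 1 annotated gene on the opposite strand, and whether the counting used strand is not given in the sources used here.

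The 5 genes appeared in the data in a graded order. Fbn2 was already abundant in the cells labelled E10.5, Fbn1 was read there in a minority of cells, Eln and Lox were first read beyond a handful of counts at E12.5, and Mfap5 was read at E15.5 and in no earlier cell. As a percentage of the level at E15.5, its highest stage, the cells labelled E10.5 held 53.3% for Fbn2, 16.2% for Fbn1, 0.216% for Lox, 0.0864% for Eln and 0% for Mfap5. At E12.5 these percentages were 61.6%, 38.8%, 14.6%, 8.90% and 0%. The order of Lox and Eln at E10.5 rested on 3 and 5 counts, whose intervals overlap on the CPM scale, so their order there was not detectable at this depth.

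**Figure D1:**
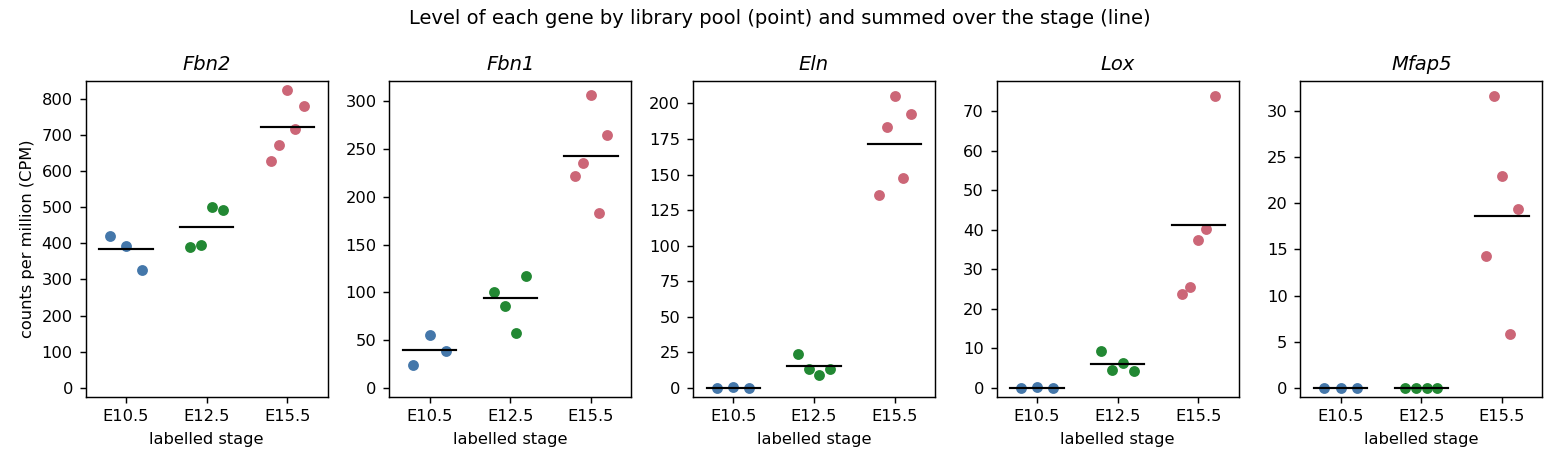
Level of each gene in CPM (vertical axis, a separate linear scale per gene) by labelled stage (horizontal axis), with a point for each library pool and a line for the counts summed over the stage. Fbn2 lies at 327 CPM or more in every pool, while Mfap5 lies at 0 CPM in all pools before E15.5.

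Fbn2 had the highest level of the 5 genes at every stage, also per kilobase of transcript, a scale with a limit given below. Summed over the stage it was at 384 CPM (378 to 391), 444 CPM (438 to 450) and 721 CPM (713 to 729). By pool it was at 420, 393 and 327 CPM at E10.5, at 390, 397, 501 and 491 CPM at E12.5, and at 628.9, 672, 824, 717 and 781 CPM at E15.5. The pools of E10.5 and E12.5 overlapped, and all 5 pools of E15.5 lay above both. The 1.62-fold higher level at E15.5 than at E12.5 (1.60 to 1.65) was a log2 ratio of 0.69 with 5 added to each CPM, below the size of 1 that a call required although no pools overlapped. To be called, a gene also needed pools that did not overlap between the compared stages.

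Fbn2 was read in most cells of every stage. After each cell was thinned to 50000 counts, which 115, 149 and 185 cells reached, 93.0%, 92.6% and 95.1% of cells held it. Without thinning the shares were 94.1%, 95.6% and 97.5%. Its level in the median cell was 294, 357 and 493 CPM, and the 5 highest cells held 12.4% of its counts at E15.5. Its counts were thus spread over many cells.

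Fbn1, whose protein forms microfibrils together with fibrillin-2, was at 39.3 CPM (37.2 to 41.5), 93.9 CPM (91.1 to 96.7) and 242 CPM (238 to 247). By pool it was at 24.4, 55.7 and 38.7 CPM, then at 100, 85.5, 58.0 and 117 CPM, then at 222, 235, 307, 183 and 264 CPM. The 3 stages did not overlap, although pool 6 of E12.5 came within a few CPM of pool 2 of E10.5. Fbn1 was called higher at both steps, 2.39-fold (2.24 to 2.54, log2 ratio 1.16) and 2.58-fold (2.49 to 2.67, log2 ratio 1.32). The first call was lost without pool 1 (log2 ratio 0.90) and without pool 7 (0.9955). It was also lost with median-of-ratios scaling of the pools, at 1.04 with overlapping pools. The share of thinned cells with Fbn1 was 18.3%, 40.9% and 75.1%, and unthinned 28.6%, 47.5% and 84.5%.

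Mfap5 had 0 counts in 119 cells labelled E10.5 and in 158 cells at E12.5, which allows shares of up to 2.52% and 1.90% of cells with a count, taking a floor of 3 cells, or 3.05% and 2.31% by the exact intervals. At E15.5 it was at 18.6 CPM (17.4 to 19.9), with 14.3, 31.6, 23.0, 5.87 and 19.4 CPM in the 5 pools. Every pool of E15.5 thus held it and no earlier pool did. It was called higher at E15.5 and was at least 285-fold higher than at E12.5, taking a floor of 3 counts over the E12.5 cells. Its 856 counts came from 25 of 200 cells, 9.19% after thinning, and 5 of these cells held 56.3% of them. Among cells with a count the median was 112 CPM and the highest 1495 CPM, so it was high in few cells.

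Eln, the source of the elastic core, had 5 counts in 3 cells at E10.5, all of pool 2, and was at 0.148 CPM (0.0481 to 0.346). At E12.5 it was at 15.3 CPM (14.1 to 16.4), with 23.7, 13.3, 9.20 and 13.6 CPM by pool. At E15.5 it was at 171 CPM (168 to 175), with 136, 183, 205, 148 and 192 CPM. No pool overlapped those of another stage, and Eln was called higher at both steps. The fold was 103 (43.9 to 318) at the first step, or 65.0 without pool 1. At the second step it was 11.2 (10.4 to 12.2).

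Cells with Eln were both fewer and lower at E12.5 than 3 days later. Eln was read in 30 of 158 cells at E12.5 and in 159 of 200 at E15.5, or 12.8% and 66.5% after thinning. The 5 highest cells held 71.4% of the E12.5 counts and 21.0% of the E15.5 counts. Among cells with a count the median was 19.5 CPM at the earlier and 90.1 CPM at the later of these stages, and the highest cell was at 410 and 2460 CPM. Summed over a stage, fewer positive cells and less RNA in each cannot be told apart, but here both the share of cells and the level among positive cells were higher at E15.5.

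Lox, the crosslinking enzyme, had 3 counts in 1 cell of pool 2 at E10.5 and was at 6.02 CPM (5.33 to 6.77) at E12.5, with 9.31, 4.48, 6.44 and 4.29 CPM by pool. At E15.5 it was at 41.2 CPM (39.4 to 43.1), with 23.9, 25.6, 37.4, 40.1 and 73.9 CPM by pool. All pools of each stage lay above those of the stage before, and pool 12 stood highest. Lox was called higher at both steps, 67.7-fold (22.9 to 330) from the 3 counts and 6.84-fold (6.03 to 7.79). The first fold was 42.8 without pool 1 and at least 44.1 without pool 2, where 0 counts remained.

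The first Lox call depended on few cells. At E12.5 it was read in 11 of 158 cells, of which 5 held 86.3% of the counts, and the log2 ratio of 1.11 went to 0.37 without the highest cell of each pool and to 0.96 without pool 4. By E15.5 the number was 75 of 200 cells (37.5%), or 24.9% after thinning. Among cells with a count the median was 65.4 CPM in the 11 earlier cells and 24.4 CPM in the 75 later ones, and the highest was 277 and 1025 CPM. Unlike Eln, Lox thus had a lower median among its positive cells at E15.5. These medians take in cells with any count, down to 0.844 CPM for Lox at E15.5. With at least 3 thinned counts required, the share of cells with Lox fell to 13.5% at E15.5 but stayed at 4.70% at E12.5.

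**Figure D2:**
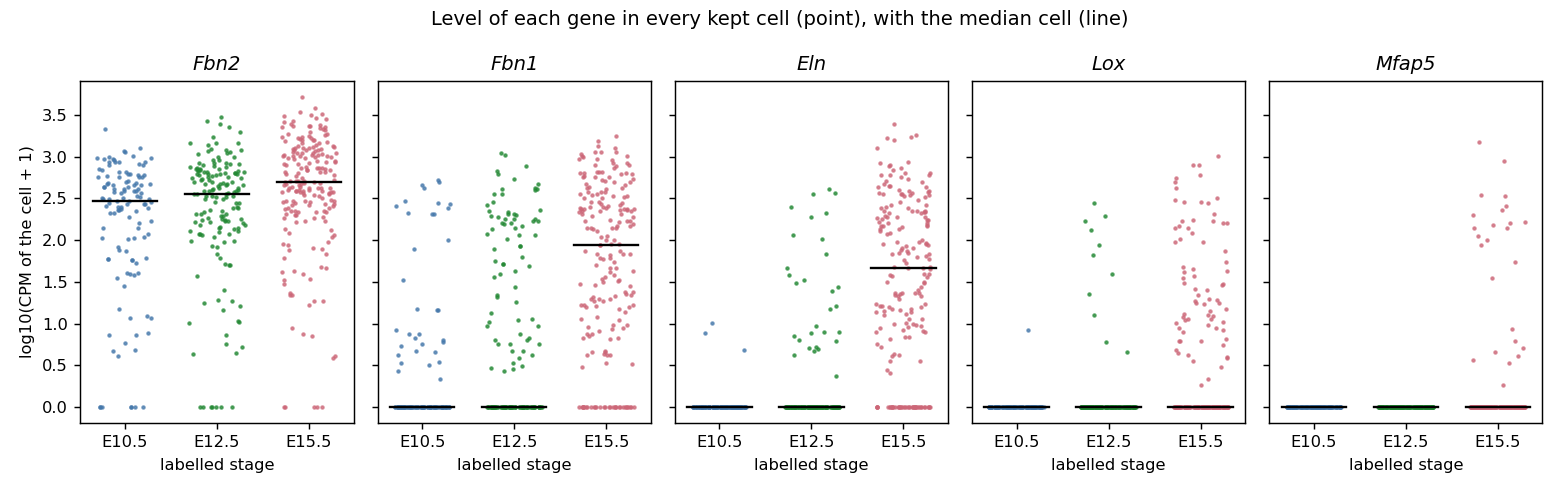
Level of each gene in every kept cell (points, vertical axis log10 of CPM plus 1) by labelled stage (horizontal axis), with a line at the median cell. The median cell has a count of Fbn2 at all stages and of Fbn1 and Eln at E15.5, while Lox and Mfap5 stay at 0 in the median cell of E15.5.

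Read against all genes, 3 of the 5 were called higher at E12.5 (Eln, Fbn1 and Lox), where 7.76% of 13125 genes tested were. At E15.5 against E12.5, 4 of the 5 were called higher (Eln, Fbn1, Lox and Mfap5), where 2.99% of all genes were. None of the 5 was called lower at either step, where 2.83% and 1.63% of genes were. The median log2 ratio of the 5 was 1.11 and 2.07, beside 0.17 and -0.04 over all genes tested. Genes with a larger ratio than Eln at the second step made up 0.236% of those tested, and 13.3% had a larger ratio than Fbn2. Both steps share the E12.5 cells. The genes and the call rule were chosen with earlier results of these data known, so these numbers are descriptions and not a test.

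Per kilobase of transcript, a scale that holds only if reads came from the whole transcript, the order of levels was Fbn2, Fbn1, Eln and Lox at E12.5, at 40.2, 7.84, 3.96 and 1.27 CPM per kilobase. At E15.5 it was Fbn2 (65.3), Eln (44.5), Fbn1 (20.2), Mfap5 (12.3) and Lox (8.69). On this scale Eln thus stood below Fbn1 at E12.5 and above it at E15.5, while in CPM it stood below Fbn1 at both. Cells of a pool were told apart by barcode, and which part of a transcript the reads covered was not examined. Whether the scale holds is thus not known, and the change of rank was not established.

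Cells of other types differed in number between stages. Endothelium-like cells numbered 5, 3 and 10, skin epithelium-like cells 0, 7 and 28, and differentiated muscle-like cells 0, 7 and 11 across the stages in order. The cell numbers come from clusters over all stages. Without these clusters the same 3 and 4 genes were called. The log2 ratio at the second step was then 3.35 for Eln, 1.60 for Fbn1, 2.39 for Lox and 2.65 for Mfap5. For Fbn2 it was 0.9991, just under a call.

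Fbn2 outnumbered Fbn1 at each stage, by less at each later one. Of all fibrillin counts Fbn2 made up 90.7% (90.2 to 91.2), then 82.6% (82.1 to 83.0), then 74.9% (74.5 to 75.3). In ratios Fbn2 exceeded Fbn1 by 9.77-fold, 4.73-fold and 2.98-fold. Per kilobase the ratios were 10.6, 5.13 and 3.23, if reads came from the whole transcript, which was not examined. Both genes were counted in the same cells, so the depth of a library cancels in the share.

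The shares by pool were 94.5%, 87.6% and 89.4% at E10.5, then 79.6%, 82.3%, 89.6% and 80.8% at E12.5, then 73.9%, 74.1%, 72.9%, 79.7% and 74.7% at E15.5. Pool 6 of E12.5 lay within the range of E10.5, and pool 11 of E15.5 was just above pool 4 of E12.5. Only the ranges of E10.5 and E15.5 were fully apart. Pool 6 had the lowest Fbn1 level of E12.5 and the highest Fbn2 level.

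**Figure D3:**
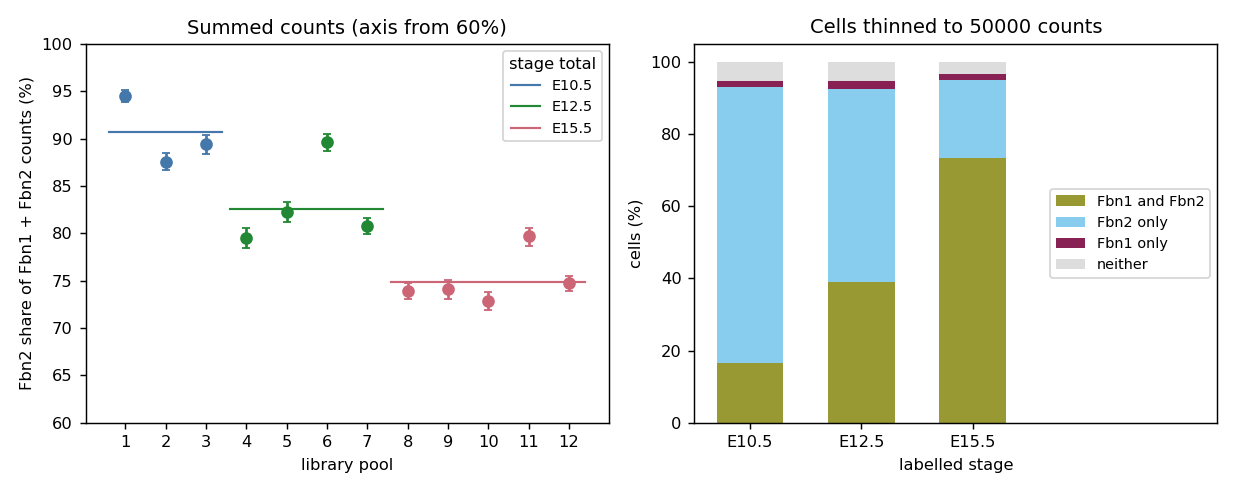
Left, Fbn2 share of the summed Fbn1 and Fbn2 counts (percent, axis starting at 60%) for each library pool with its exact 95% interval, and lines for the stage totals. Right, percent of cells thinned to 50000 counts with both fibrillins, Fbn2 only, Fbn1 only or neither, where cells with both make up 16.5%, 38.9% and 73.5%.

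Most cells with Fbn1 held Fbn2 as well, and so did most cells without Fbn1. At E12.5 Fbn2 was in 95.1% of thinned cells with Fbn1 and in 90.9% of those without, and at E15.5 in 97.8% and 87.0%. In the cells labelled E10.5 it was in 93.0% of all thinned cells. Of 115 thinned cells labelled E10.5, 88 held Fbn2 only, 19 both, 2 Fbn1 only and 6 neither. Of 149 at E12.5 the numbers were 80, 58, 3 and 8, and of 185 at E15.5 they were 40, 136, 3 and 6. Cells with Fbn1 only thus stayed at 1.74%, 2.01% and 1.62%, while cells with both went from 16.5% (10.3 to 24.6) to 73.5% (66.5 to 79.7).

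The share per cell was at or near 100% in the median cell of E10.5 and E12.5, and spread more widely at E15.5. The lower quartile was 99.0%, 78.2% and 63.2% across the stages, and the upper quartile at E15.5 was 97.7%. Among the 98, 138 and 179 cells with at least 10 fibrillin counts, the median Fbn2 share was 100%, 99.5% and 82.5%. All fibrillin counts were Fbn2 in 65, 65 and 19 of these cells, and Fbn2 was the minority in 7, 14 and 30.

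Where the genes were read at E15.5 was described in 9 clusters of the 200 cells, made without the 5 genes and named only where their leading genes allowed it. Fbn2, Fbn1 and Eln had their lowest levels in the endothelium-like (10 cells) and skin epithelium-like (23 cells) clusters, whose intervals overlapped for Fbn1, at 74.1 CPM (65.8 to 83.3) and 78.5 CPM (71.8 to 85.6). The differentiated muscle-like cluster (26 cells) came next for all 3 genes. It was mixed, and also held Sox10, a gene of Schwann cells, at 126 CPM and Col2a1 at 934 CPM. The clusters over all stages named only 11 E15.5 cells muscle-like, with Fbn2 at 266 CPM, Fbn1 at 92.5 CPM and Eln at 70.0 CPM. Fbn1 was at 95.0 CPM in their skin epithelium-like cells of that stage. Of the named clusters, the cartilage-like cluster (21 cells), with Col2a1 at 3353 CPM and Acan at 332 CPM, was the only one with Fbn2 near the levels of the unnamed clusters. Clusters are made from these cells, so these levels are descriptions.

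Fbn2 was at 214 CPM (200 to 229) in endothelium-like cells, 273 CPM in skin epithelium-like cells and 400 CPM in the mixed muscle-like cluster. It lay between 843 and 1052 CPM in the other 6 clusters. It was read in all 10 endothelium-like cells. In those cells it made up a median of 0.848% of a pool's Fbn2 counts. As a reference for reads that reach the wrong cell, the mast cell protease gene Cma1 was followed outside its 5 carriers. In the other 195 cells it made up a median of 0.0446% and at most 0.175% of a pool's Cma1. This reference covers reads of Cma1 only. The 5 carriers themselves held Fbn2 at 235 CPM in 5 cells, and Eln at 159 CPM and Fbn1 at 40.2 CPM in 4 cells each. Lox had 0 counts in them. Whether reads of the 5 genes in the carriers were stray was not tested. Of the 200 cells, 169 lay above the highest Cma1 share of 0.175% for Fbn2, 118 for Fbn1, 115 for Eln, 70 for Lox and 25 for Mfap5. For Mfap5, with 46 to 256 counts a pool, any single count exceeds that share, so all 25 cells with a count passed. The same held for Lox in every pool but pool 12, and 70 of its 75 cells with a count passed. For Lox and Mfap5 the comparison thus cannot tell stray reads from others. Nor does it clear the cells above that share for Fbn2, Fbn1 and Eln, as other genes may stray more than Cma1. The skin gene Krt14 was at 2360 CPM in the skin epithelium-like cluster and between 5.72 and 246 CPM in the other clusters. Whether its reads there were stray was not tested.

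Eln was highest as a sum in the cartilage-like cluster, at 414 CPM (394 to 436). There 1 cell held 34.9% of its counts, and the median cell was at 93.0 CPM. In the cluster led by Scx (21 cells, Scx at 1274 CPM and the tendon gene Tnmd at 683 CPM) the sum was 259 CPM, and the median cell, at 190 CPM, was the highest of all clusters. The order of these clusters for Eln thus turned with the measure. Tnmd did not mark the cluster led by Scx alone. It was also at 683 CPM in the cluster led by Fam196b, 301 CPM in that led by Cma1 and 273 CPM in the cartilage-like cluster. Eln was at 249 CPM in the cluster led by Fam196b and 223 CPM in the cluster led by Arsj. It was at 97.3 CPM in the mixed muscle-like cluster, 49.6 CPM in skin epithelium-like cells and 25.7 CPM in endothelium-like cells.

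Fbn1, Lox and Mfap5 shared the same highest cluster, the one led by Arsj and Ntrk2 (36 cells). It held Dcn at 1823 CPM, Thy1 at 292 CPM and Dpt at 118 CPM, genes of connective tissue fibroblasts, and also the smooth muscle genes Acta2 at 148 CPM and Myh11 at 78.3 CPM. Fbn1 was there at 482 CPM (467 to 496), Lox at 118 CPM (111 to 125) and Mfap5 at 56.5 CPM (51.7 to 61.5). Lox was read in 25 of the 36 cells and Mfap5 in 11. The cluster led by Scx followed for Fbn1, at 416 CPM, and for Lox, at 70.2 CPM.

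Mfap5 rested on fewer cells in each of the other clusters. In the cluster led by Scx it was read in 2 cells, and its 118 counts in the cartilage-like cluster and its 57 counts in the cluster led by Fam196b came from 1 cell each. In the cluster led by Cma1 (33 cells, of which 5 carried that gene) it had 3 counts, although Eln was at 165 CPM and Fbn2 at 843 CPM there. Lox had 5 counts in the 10 endothelium-like cells and was at 4.62 CPM in skin epithelium-like cells.

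The share of thinned cells with a count gives the same picture beside a cell type outside the mesenchyme. In skin epithelium-like cells Fbn2 was read in 81.8%, Fbn1 in 50%, Eln in 40.9%, and Lox and Mfap5 in 4.55% each. In the cluster led by Arsj the shares were 100%, 90.9%, 81.8%, 51.5% and 30.3%, at similar median depths of 255191 and 255694 counts. Col2a1, a cartilage gene, was at 1190 CPM in the skin epithelium-like cluster, and its part in these shares was not tested.

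**Figure D4:**
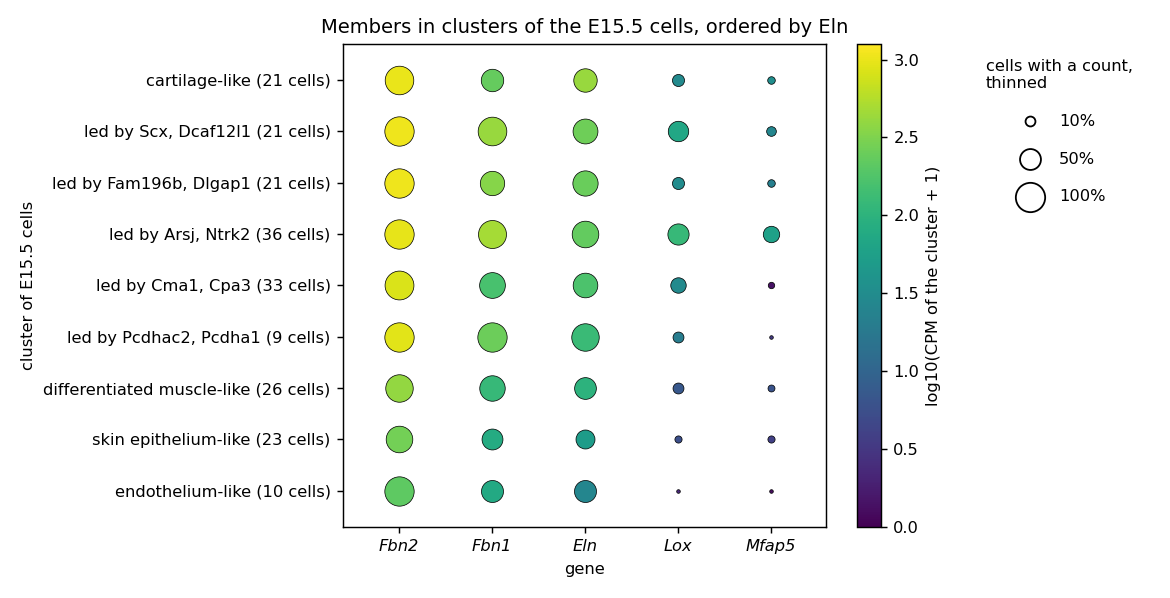
Clusters of the 200 E15.5 cells (rows, ordered by summed Eln) against the 5 genes (columns), with colour for log10 of the cluster's CPM plus 1 and point area rising with the percent of thinned cells with a count. Lox and Mfap5 are highest in the cluster led by Arsj and Ntrk2, and the endothelium-like cluster has the lowest level of Fbn2, Fbn1 and Eln.

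The Fbn2 share of fibrillin counts also differed between clusters of the same stage. It was lowest in the cluster led by Arsj, at 67.0% (66.2 to 67.8), followed by the cluster led by Scx, at 71.7% (70.5 to 72.8). It was 80.8% (79.6 to 81.9) in the cartilage-like cluster and 84.4% (83.6 to 85.2) in the cluster led by Cma1. The intervals of these 4 clusters did not overlap, but they cover counting error only and not the spread between cells. In the cartilage-like cluster 1 cell held 28.2% of the Fbn1 counts. The other clusters lay between, from 74.3% (71.6 to 76.8) in endothelium-like cells to 78.2% in the cluster led by Pcdhac2. The endothelium-like interval overlapped that of the cluster led by Scx.

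At E12.5 the context of the genes was described in clusters made over all stages. Eln was at 19.8 CPM (18.2 to 21.6) in the 82 cells of the cluster led by Aldh1a2, Hoxd12 and Scx, and at 16.2 CPM (13.6 to 19.2) in the 45 cells of the cluster led by Apoe, where 1 cell held 86.4% of the counts. It had 0 counts in the 7 skin epithelium-like cells and 1 count in the 7 muscle-like cells of that stage. Lox was at 7.66 CPM in the cluster led by Aldh1a2 and at 1.23 CPM in the cluster led by Apoe. It was highest, at 21.2 CPM, in the 11 cells of the cluster led by Pcdhac2, where 1 cell held 98.3% of its 59 counts. Eln was at 11.1 CPM there, from 31 counts of 1 cell. Fbn2 was at 474, 436 and 544 CPM in these 3 clusters. Fbn1 was at 86.2 and 105 CPM in the first pair and at 238 CPM (220 to 257) in the cluster led by Pcdhac2.

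At E15.5, cells with Mfap5 or Lox mostly also held Fbn2, Fbn1 and Eln. Of 17 thinned E15.5 cells with Mfap5, all 17 held Fbn2, 16 Fbn1, 14 Eln and 7 Lox. Of 168 cells without Mfap5, 159 held Fbn2, 123 Fbn1, 109 Eln and 39 Lox. Of 46 cells with Lox, 35 held Eln (76.1%, 61.2 to 87.4), beside 88 of 139 without Lox (63.3%). Fbn1 was in 76.1% of cells with Lox and 74.8% of those without, and Fbn2 in 95.7% and 95.0%. Fbn1 was about as frequent with Eln as without it: 93 of 123 cells with Eln held Fbn1 (75.6%), beside 46 of 62 without Eln (74.2%).

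At E12.5 no thinned cell held both Eln and Lox, but too few cells held Lox to tell whether the genes were apart. None of the 19 thinned cells with Eln held Lox and none of the 7 with Lox held Eln. Of the 142 cells without Lox only 19 held Eln (13.4%), so 0 of 7 cells does not set the genes apart. At that stage 8 of 149 cells held 3 of the 5 genes and 0 held more. At E15.5, 81 of 185 cells held 3, 27 held 4 and 6 held all 5.

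Over the 200 E15.5 cells the levels of the genes were weakly related at most, with Pearson r of 0.28 for Eln and Fbn2, 0.27 for Fbn1 and Fbn2, 0.28 for Fbn1 and Mfap5, and -0.002 for Eln and Lox. These cells share 5 libraries, and r with the total count of the cell lay between -0.06 and 0.14. The genes most like Eln over these cells were Mfap2, with r of 0.39, which encodes another microfibril glycoprotein, and the collagen genes Col1a1, Col1a2, Col3a1 and Col5a2. Those most like Fbn2 were Col3a1 (0.48), Col1a2, Fstl1, Col5a1 and Col1a1, and those most like Fbn1 were S1pr3 (0.41), Dlk1, Col1a2, Fstl1 and Col3a1. Lox was most like Dcn (0.39), Creb5, Cenpc1, Fn1 and Matn2. Mfap5 was most like Adcy6 (0.45), Ccdc136, Gpc4, and Snrpn and Snurf, whose counts were alike.

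Over the 12 pools, which share embryos within a stage and so mostly carry the stage differences, Eln was most like Ogn (r 0.99), Zfp36, Col3a1, Col6a1 and Fstl1. Fbn1 was most like Col3a1 (0.98), Col6a1, Col1a1, Ogn and Eln. Lox was most like Zfp36 (0.97), Eln, Jund, P4ha3 and Fbln5. Fbn2 was most like Sec31a (0.97), Ntm, Ctsk, Cd44 and Bgn, and Mfap5 like Prss35 (0.97), Sdpr, Ppp1r3b, Ctsk and Thy1. Zfp36 encodes an RNA-binding protein that is induced early after many stimuli, and Jund a subunit of AP-1.

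The other genes of the pathway, 44 in 9 lists, were read beside the 5. Of the 40 tested, 17 were called higher and 1 lower at E12.5 (median log2 ratio 0.87), and 9 higher and 0 lower at E15.5 against E12.5 (median 0.67). The shares of all genes called and their medians are those given above, and the lists too were chosen with earlier results known. Collagen genes held 5 of the calls at each step.

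**Figure D5:**
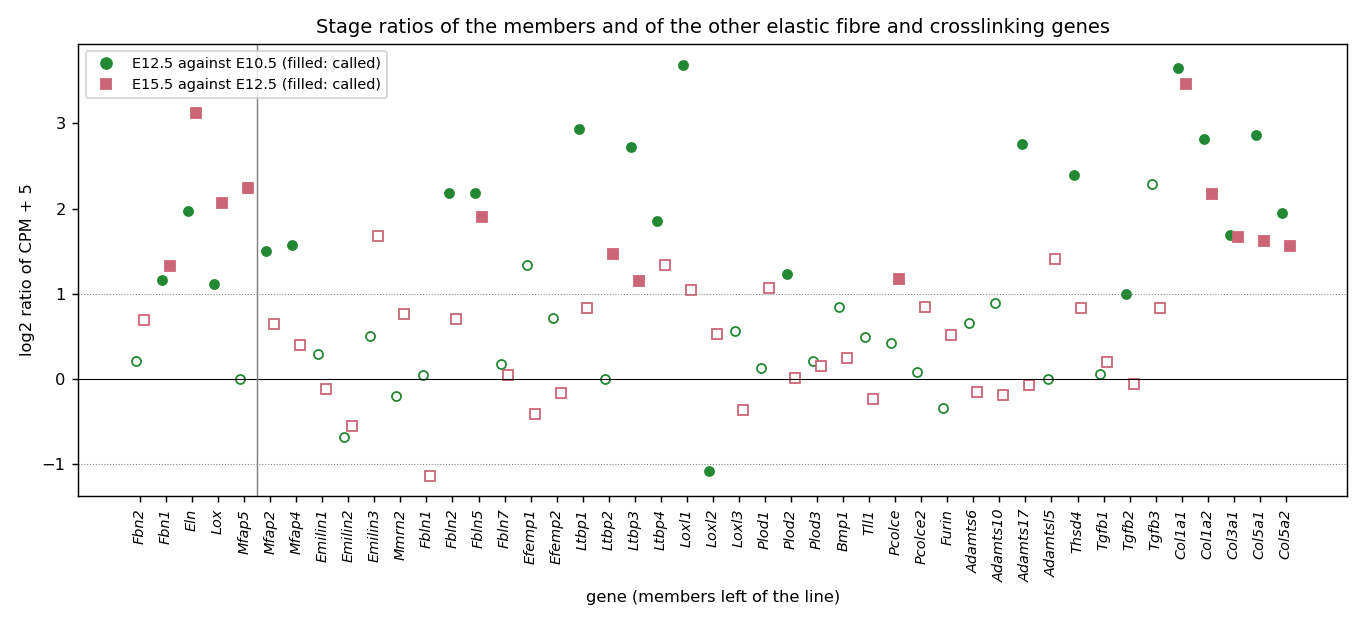
Log2 ratio of CPM plus 5 (vertical axis) for the 5 genes, left of the line, and the 40 other tested genes (horizontal axis), for E12.5 against E10.5 (circles) and E15.5 against E12.5 (squares), with called genes filled. Loxl1 has the largest ratio at the first step, 3.69, and Col1a1 at the second, 3.46.

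Among microfibril and fibre surface genes, 2 of 6 were called higher at E12.5 and 0 at E15.5. Mfap2 rose from 113 to 329 CPM and Mfap4 from 18.4 to 64.6 CPM. Emilin1, which encodes a glycoprotein at the elastin surface, was at 93.2, 115 and 106 CPM and was not called. Mfap2 was thus read before Mfap5 was.

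Among fibulins, which tie tropoelastin to microfibrils, 2 of 6 were called higher at E12.5 and 1 at E15.5. Fbln5, which binds tropoelastin and lysyl oxidase-like enzymes, was called at both steps, at 0.533, 20.2 and 89.2 CPM. Its first fold of 37.9 was 23.9 without pool 1 and at least 148 without pool 2, which held all of its E10.5 counts. Fbln2 rose from 20.2 to 109 CPM at E12.5. Efemp2, needed for elastic fibre assembly, was at 56.7, 96.7 and 86.1 CPM and was not called.

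Among latent TGF-beta binding proteins, 3 of 4 were called higher at E12.5 and 2 at E15.5. Ltbp3 was called at both steps, at 30.2, 228 and 511 CPM, the second call being lost with the mean of each cell's CPM (log2 ratio 0.90). Ltbp1 rose from 8.62 to 99.1 CPM, an 11.5-fold difference that was 21.3-fold without pool 1 and 7.59-fold without pool 2. Ltbp4, which helps elastin deposition, rose from 1.24 to 17.6 CPM, but its call was lost without the clusters of other cell types, and its fold of 14.1 was 8.93, 9.22 and at least 142 without pools 1, 2 and 3. Ltbp2 had 0 counts before E15.5, as Mfap5 did, and was at 8.80 CPM there, a call that was lost without the highest cell of each pool (log2 ratio 0.44). Ltbp2 too was among the genes tested only through its E15.5 cells.

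The other lysyl oxidases differed from Lox and from each other. Loxl1, the family member tied to elastin, rose from 2.07 to 86.2 CPM at E12.5, 41.6-fold, or 63.4-fold without pool 1 and 27.1-fold without pool 2. It was at 184 CPM at E15.5 and not called there. Loxl2 was the single gene called lower, from 452 to 211 CPM (log2 ratio -1.08), a call lost without pool 2 (-0.85) and without the clusters of other cell types (-0.9953). In the cells labelled E10.5, where Lox had 3 counts, both Loxl2 and Loxl3, at 45.7 CPM, were thus already read.

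Of the lysyl hydroxylases, which modify collagen before it is crosslinked, Plod2 rose from 25.1 to 65.5 CPM at E12.5, a call lost without pool 1 (0.91) and without pool 7 (0.95). Of the processing proteases and enhancers, 0 of 5 were called at E12.5 and Pcolce, which enhances procollagen cleavage, rose from 110 to 255 CPM at E15.5. Bmp1, which encodes a protease that activates lysyl oxidase, was at 108, 199 and 237 CPM and was not called. Of fibrillin-binding ADAMTS and ADAMTSL genes, Adamts17 rose from 1.96 to 42.2 CPM, 21.6-fold or 13.8-fold without pool 1, and Thsd4 from 5.04 to 47.9 CPM at E12.5. Of the TGF-beta ligands, Tgfb2 was called at E12.5 with 64.2 and 134 CPM, at a log2 ratio of 1.00 that went below 1 without pool 1, 3, 5 or 6, with median-of-ratios scaling (0.89), with 20 added to each CPM (0.87) and in cells with at least 2000 genes (0.9973).

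The fibrillar collagens that lysyl oxidases also act on were all called higher at both steps. Col1a1 was at 11.6, 204 and 2287 CPM, Col1a2 at 140, 1020 and 4597 CPM, Col3a1 at 195, 638.4 and 2030 CPM, Col5a1 at 19.2, 171 and 539 CPM and Col5a2 at 60.3, 246 and 737 CPM. Their log2 ratios at the second step, 1.56 to 3.46, covered those of Lox (2.07) and Eln (3.12).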

How the data were processed

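The deposited table gives counts of reads, whole numbers for each gene in each of 480 cells, and the values show no normalization by the authors. The submitters' processing notes name Bowtie2, featureCounts and mm10. Not known are the versions, the annotation and any molecular identifiers (not given in the sources used here). Copies made by PCR may thus be counted. The labels' protocols name Nextera XT. The other 1120 samples were not analysed here. Symbols with more than 1 entry (298, with 0.101% of counts) were merged. No doublet caller was run, and 3 cells were dropped for having fewer than 1000 genes. Cells held 2681 to 1185267 counts, and stages 33742559, 46009284 and 46035725.

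CPM are summed counts over the summed total. Log2 ratios, with 5 added to CPM, cover 13125 genes seen in 10 or more kept cells, and folds leave the 5 out. Gene models are GENCODE, GRCm38. Clustering in scanpy 1.11.5 used 2000 variable genes without the 5 described, 15 components, 15 neighbours and resolution 1. Names needed at least 3 listed markers among the top 100 genes, no other list level with it in the top 10, and a median list level 3 times that of other cells. The last condition was added after the data were seen, as were the clusters of E15.5 cells alone and the Cma1 reference.

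The genes, lists and call rule were chosen with earlier results of these data known. Named are the 5 genes, called pathway genes (up to 4 examples a list), the 5 most alike genes among those with 20 CPM in 20% of cells, and limb identity genes. Emilin1, Efemp2, Bmp1, Loxl3 and the genes describing clusters fall outside that rule, picked with values in view. The scripts were tested on simulated data. Alternatives changed the addition, scaling, filters, thinning, pools, highest cells and cell types.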

Additional observations from a re-analysis of the deposited data

How the results depend on the processing

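With 20 added to each CPM, 0 of the 5 genes were called at E12.5, with log2 ratios of 0.81 for Eln, 0.94 for Fbn1 and 0.37 for Lox, and Mfap5 lost its call at E15.5 (0.95). Of pathway genes, Fbln5 (0.97), Ltbp4 (0.82), Plod2 (0.92) and Tgfb2 (0.87) then lost their calls at E12.5 and Ltbp2 (0.53) at E15.5. This setting shrinks the ratios of low genes by construction. Leaving out a pool gave 2 to 3 genes called at the first step and 4 to 4 at the second. No log2 ratio of the 5 genes reversed under any alternative run. Median-of-ratios scaling moved the median of all genes by -0.10 and 0.09, and called 862 genes higher and 486 lower at E12.5, against 1018 and 371, and 455 higher and 151 lower at E15.5, against 392 and 214. Of pathway genes, 2 were called lower at E12.5 with the mean of each cell's CPM and 0 without other cell types. Leaving out a pool gave 0 to 2 lower at the first step and 0 to 1 at the second. The cause of these differences was not tested.

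The Fbn2 share of fibrillin counts as a mean over cells was 92.0%, 85.0% and 75.5%, and without the highest cell of each pool 93.8%, 84.9% and 76.6%. Without 1 pool it ranged from 88.3% to 92.5%, from 80.8% to 83.5% and from 74.0% to 75.4%, so the order of stages remained in the totals.

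Shares of cells moved with depth. Thinned to 20000 counts, Fbn2 was read in 79.7%, 85.9% and 88.3% of cells, Fbn1 in 30.8% at E12.5 and 63.8% at E15.5, and Eln in 52.0% at E15.5. With at least 3 thinned counts required, Fbn2 was in 79.1%, 85.9% and 89.2%, Fbn1 in 30.2% at E12.5 and 58.4% at E15.5, and Eln in 48.6% and Lox in 13.5% at E15.5. Not thinned, Fbn1 was in 28.6% at E10.5 and 84.5% at E15.5, Eln in 79.5% and Lox in 37.5% at E15.5. No paired analysis was possible because the results come from no test and replicate numbers only name cells.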
